A study of Homo sapiens with 6 samples.

Results

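The transcription factors that give a liver cell its identity were followed in Huh-7 cells, an established line derived from a human hepatocellular carcinoma, after stable overexpression of the small GTPase RAC3. The 8 genes were chosen by name from 20332 genes in the count table: HNF4A, FOXA1, FOXA2 and FOXA3, the C/EBP genes CEBPA, CEBPB and CEBPD, and PROX1. Polyadenylated RNA was sequenced from 3 samples of cells stably carrying the RAC3 construct and from 3 negative control samples of the same line. Lentivirus carried the construct in the study's methods, the controls are given a WT genotype, and all 6 samples are Huh-7 cells with no other treatment or allele named. The methods call the RNA samples independent. No label says whether they came from separate cultures or clones, so p-values measure the spread between these samples.

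These factors form a network in hepatocytes. HNF4A is a nuclear receptor that binds the promoters of many genes for lipoproteins, clotting factors and metabolic enzymes. FOXA proteins open chromatin at liver enhancers and act early when the liver is specified, and PROX1 is a homeobox factor of the embryonic liver that is also known to restrain HNF4A and NR5A2. C/EBP proteins bind DNA as dimers with each other. CEBPA is the form of the resting hepatocyte and holds back proliferation, whereas CEBPB and CEBPD are the forms induced by inflammatory cytokines in the acute phase response.

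Promoter windows of some members are shown here because they set CEBPA and FOXA3, which had lower RNA with RAC3, beside CEBPB and HNF4A, which had no call. RefSeq windows (build GRCh38.p14) run from 250 bases before to 50 bases after the start and are written 5′ to 3′ on the gene's strand. Capitals mark matches to 6 short motifs on either strand, which do not overlap each other in these windows. The letters searched were TATAAA for the TATA box, CCAAT for the CCAAT box, TTGCNNAA for C/EBP, TGTTTNC for FOXA, CACGTG for the E-box and AACAAT for SOX factors. Of the 8 members, 5 had a window, with 7 windows in all. No window was used for CEBPD, which rose, for FOXA2, which fell, or for PROX1.
CEBPA promoter, chr19:33302485-33302784, minus strand: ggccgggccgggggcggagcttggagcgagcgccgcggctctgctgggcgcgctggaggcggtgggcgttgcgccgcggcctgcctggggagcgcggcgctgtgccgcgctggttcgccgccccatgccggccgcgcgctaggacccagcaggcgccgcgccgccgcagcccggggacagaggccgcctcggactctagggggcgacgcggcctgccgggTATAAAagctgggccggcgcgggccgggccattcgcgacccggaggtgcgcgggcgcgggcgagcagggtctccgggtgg
FOXA3 promoter, chr19:45864076-45864375, plus strand: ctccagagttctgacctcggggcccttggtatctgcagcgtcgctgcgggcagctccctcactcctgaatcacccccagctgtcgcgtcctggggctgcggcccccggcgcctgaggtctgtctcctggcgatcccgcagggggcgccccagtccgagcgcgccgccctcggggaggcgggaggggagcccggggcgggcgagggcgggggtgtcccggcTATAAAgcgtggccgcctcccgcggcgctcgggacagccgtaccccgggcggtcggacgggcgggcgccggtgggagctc
CEBPB promoter, chr20:50190580-50190879, plus strand: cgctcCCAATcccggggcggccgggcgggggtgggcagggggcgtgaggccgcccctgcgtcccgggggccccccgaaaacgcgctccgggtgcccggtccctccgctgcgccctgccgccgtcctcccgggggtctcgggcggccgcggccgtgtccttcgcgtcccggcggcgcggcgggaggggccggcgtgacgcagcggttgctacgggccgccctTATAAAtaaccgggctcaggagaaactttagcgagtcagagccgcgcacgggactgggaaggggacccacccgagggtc
HNF4A promoter, chr20:44355449-44355748, plus strand: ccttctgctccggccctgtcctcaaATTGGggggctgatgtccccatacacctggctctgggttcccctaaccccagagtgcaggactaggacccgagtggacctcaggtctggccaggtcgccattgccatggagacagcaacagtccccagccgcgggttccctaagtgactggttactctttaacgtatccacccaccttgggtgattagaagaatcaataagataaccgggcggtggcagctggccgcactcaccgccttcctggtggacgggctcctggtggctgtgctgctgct

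The CEBPA and FOXA3 windows each held TATAAA beginning 30 bases before the start, and the CEBPB window shown held it 29 bases before the start. Another CEBPB window, chr20:50190333-50190632, held no TATAAA and 1 CCAAT match, 2 bases after its start. TATAAA is present in 11.5% of all 35116 windows. Thus a TATA box stood in the promoter of members with lower RNA and in a window of a member without a call. HNF4A has 2 RefSeq starts that were counted together as 1 gene, and the upstream window shown held 1 CCAAT match on the opposite strand, read as ATTGG, 225 bases before the start. The downstream HNF4A window, chr20:44400989-44401288, is not shown and held 0 matches to the motifs searched. CCAAT was held by 34.6% of all windows. None of the 7 member windows held TTGCNNAA, CACGTG or AACAAT, which 10.5%, 7.26% and 10.1% of all windows held, and the FOXA1 window held 1 match to TGTTTNC against 18.0% of all windows. CEBPA's window was 80.7% G and C, above 97.9% of all windows. These matches are descriptions of letters in a window, and binding was not measured.

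Total counts per sample lay between 13855762 and 18199888. RAC3 itself stood at 31.3 to 35.6 CPM in the controls and 225.3 to 239.5 CPM with the construct, where CPM are counts scaled to a common library size by TMM. RAC3 samples 2 and 3 carry genotype labels that read RAC4 and RAC5, and they were grouped by their titles, which name RAC3. Of 9 markers of a hepatocyte-derived line all were tested, with a summed level of 13327 to 13645 CPM in the controls and 12026 to 12742 CPM with RAC3. ALB, at 2366 and 2228 CPM, and KRT8 and KRT18 had no call, AFP rose, and TF, TTR and GPC3 fell. With each library's GC trend removed ALB was called lower, at -0.21 on the log2 scale (edgeR adjusted p = 6.83e-05). Of 6 markers of leukocytes, endothelium and stroma, PTPRC, CDH5 and DCN were below 0.5 CPM in both group means, CD68 rose from 5.73 to 7.88 CPM, COL1A1 fell from 38.3 to 32.9 CPM, and PECAM1 had no call. The CD68 call was lost without control 3, RAC3 sample 1 or RAC3 sample 2, and the COL1A1 call without control 1, control 3, RAC3 sample 1 or RAC3 sample 3. Neither was called with DESeq2. COL1A1 was also not called with library size scaling or with the GC trend removed (-0.046, edgeR adjusted p = 0.669). The summed level of those 6 markers was 45.7 to 48.3 CPM in the controls and 43.1 to 46.2 CPM with RAC3, and their part in the results was not tested. In RNA of whole cultures, fewer cells with a transcript and less transcript per cell cannot be told apart.

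All 8 factors were expressed and all 8 passed the filter on low counts. With RAC3, CEBPD rose, CEBPA, FOXA2 and FOXA3 fell, and HNF4A, FOXA1, CEBPB and PROX1 had no call. A gene is said to have risen or fallen at an adjusted p below 0.05 in the quasi-likelihood test of edgeR, adjusted by Benjamini-Hochberg over 12941 genes. Thus 4 of 8 members were called, 1 higher and 3 lower, where 28.5% of all genes tested were called, 13.3% higher and 15.3% lower. Among the 6023 genes that averaged 500 or more counts, 40.8% were called. At the thresholds of the study, more than 1.5-fold up or down with p below 0.05 before adjustment, 1 member passed (CEBPD), and 4.68% of all genes did. The samples of the 2 groups did not overlap for 5 members, whereas 42.5% of all genes had groups that did not overlap. The members' median log2 fold change was 0.01 and that of all genes was 0.00. The members' median lay between FOXA1 and HNF4A, which had no call.

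**Figure D1:**
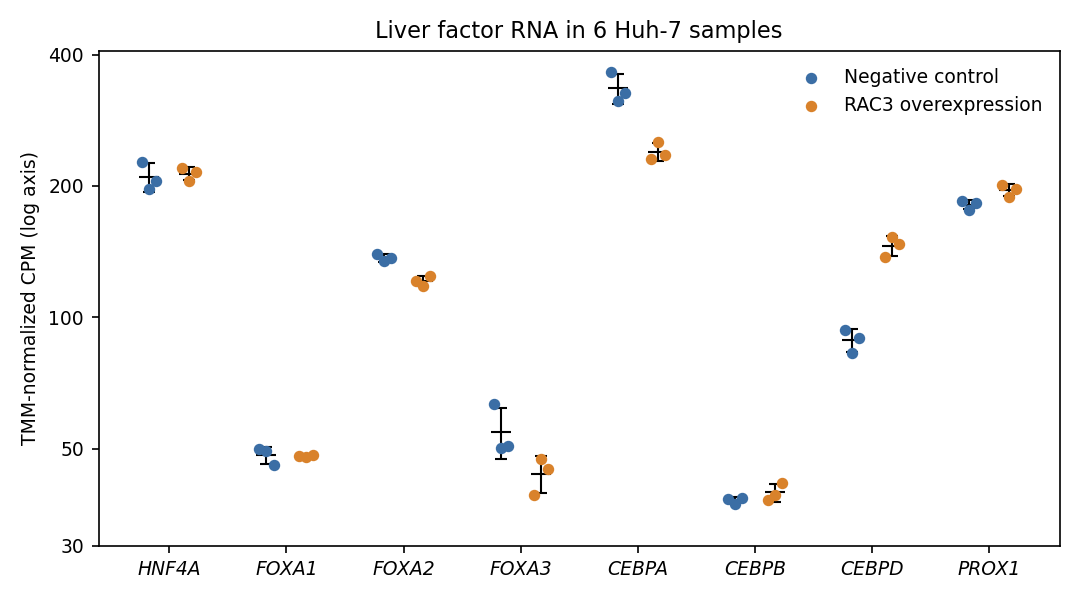
TMM-normalized CPM of the 8 factors (log axis) in 3 negative control samples and 3 RAC3 samples, with points for samples and bars for the mean ± SD. The CEBPA points move down from 313.5 to 364.2 CPM to 230.7 to 251.9 CPM and the CEBPD points move up from 83.1 to 93.5 CPM to 137.4 to 152.6 CPM, while the HNF4A, FOXA1 and CEBPB points of the groups overlap.

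The largest change among the factors was that of CEBPD, the C/EBP form known to respond quickly to interleukin 6 and stress. Its gene (ENSG00000221869) is a single exon on chromosome 8, from 47736909 to 47739086 on the minus strand of GRCh38 in GENCODE 29. CEBPD had 93.5, 83.1 and 89.5 CPM in the negative controls 1, 2 and 3 and 137.4, 152.6 and 147.1 CPM in the RAC3 samples 1, 2 and 3. Every RAC3 sample was thus above every control. The mean went from 88.7 ± 5.27 (SD, n = 3) to 145.7 ± 7.71 CPM (SD, n = 3), a fold of 1.64. Its log2 fold change was 0.72 (standard error 0.057, 95% interval 0.60 to 0.83, edgeR adjusted p = 3.93e-08), rank 25 by p among the genes tested. These levels rested on 1248 to 2515 counts per sample. Leaving out each sample in turn gave 0.67 to 0.76.

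CEBPA, the C/EBP form of the differentiated hepatocyte, went the opposite way. It is also a gene of 1 exon (ENSG00000245848, chromosome 19 from 33299934 to 33302564, minus strand), and its promoter is the first of those printed above. The controls 1, 2 and 3 had 364.2, 313.5 and 327.2 CPM, and the RAC3 samples 1, 2 and 3 had 230.7, 251.9 and 235.8 CPM. The lowest control therefore lay above the highest RAC3 sample. CEBPA fell from 335.0 ± 26.2 (SD, n = 3) to 239.5 ± 11.05 CPM (SD, n = 3), which is 0.715 of the control level, with a log2 fold change of -0.48 (standard error 0.052, 95% interval -0.59 to -0.37, edgeR adjusted p = 1.93e-06). Without each sample in turn it was -0.53 to -0.42. The gene is the most highly counted of the 8, with 3326 to 5872 counts per sample.

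CEBPB, the partner of CEBPD in the acute phase response, had no call (ENSG00000172216, chromosome 20 from 50190734 to 50192689, plus strand, 1 exon). Its levels of 38.4, 37.5 and 38.5 CPM in the controls overlapped those of 38.1, 39.3 and 41.8 CPM with RAC3. The log2 fold change was 0.06 (standard error 0.068, edgeR adjusted p = 0.561), with a 95% interval of -0.083 to 0.20. With each library's GC trend removed CEBPB was called higher, at 0.28 (edgeR adjusted p = 0.00325), so the absence of a call depended on that setting. CEBPB produces activating and inhibitory protein forms from 1 mRNA through different start codons, which counts per gene do not separate.

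Set against each other within a sample, CEBPD and CEBPB counts came nearer to those of CEBPA, the most highly counted of the 3. The log2 ratio of CEBPD to CEBPA counts was -1.96, -1.92 and -1.87 in the controls and -0.75, -0.72 and -0.68 with RAC3, with no overlap. The ratio thus differed by 1.20 on the log2 scale. The log2 ratio of CEBPB to CEBPA differed by 0.54, from -3.25, -3.07 and -3.09 to -2.60, -2.68 and -2.50. Both had an exact two-sided permutation p of 0.10, the smallest that 3 against 3 samples allow, and the ratios were chosen with the CEBPD result known. CEBPA took 71.9% to 73.4% of the counts of the 3 genes in the controls and 55.5% to 56.8% with RAC3, CEBPD took 18.9% to 19.7% and 33.8% to 34.6%, and CEBPB took 7.74% to 8.63% and 8.85% to 9.85%. Shares of counts depend on gene length. In the authors' FPKM the mean CEBPB share was 9.43% in the controls and 9.40% with RAC3, so no direction is given for it. Every RAC3 sample had a larger CEBPD share and a smaller CEBPA share than every control, and the shares of the 3 FOXA genes beside them shifted far less.

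**Figure D2:**
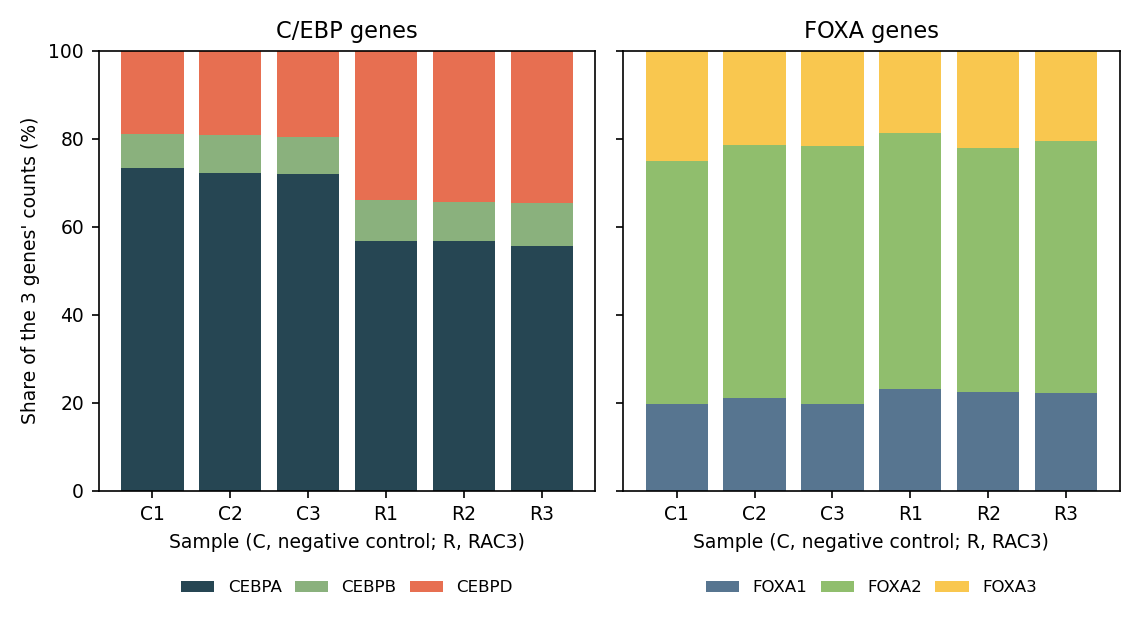
Share of the counts of CEBPA, CEBPB and CEBPD (left) and of FOXA1, FOXA2 and FOXA3 (right) taken by each gene, in percent, in the negative controls C1 to C3 and the RAC3 samples R1 to R3. The CEBPD band widens from a mean of 19.2% to 34.3% and the CEBPA band narrows from 72.5% to 56.4%, whereas FOXA2 keeps 55.3% to 58.6% in all 6 samples.

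Of the 3 FOXA genes, which encode closely related forkhead proteins, FOXA2 and FOXA3 fell and FOXA1 had no call, and none of the 3 was called with the GC trend removed. FOXA2 (ENSG00000125798, chromosome 20 from 22581005 to 22585455, minus strand) had 140.0, 134.3 and 136.6 CPM in the controls and 121.4, 118.0 and 124.6 CPM with RAC3. The groups did not overlap. FOXA2 fell by 0.18 on the log2 scale (standard error 0.048, 95% interval -0.28 to -0.075, edgeR adjusted p = 0.0102). That call was lost with library size scaling (-0.12, edgeR adjusted p = 0.0693) and with each library's GC trend removed (-0.039, edgeR adjusted p = 0.584).

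FOXA3 (ENSG00000170608, chromosome 19 from 45863989 to 45873797, plus strand), the FOXA form most associated with the adult liver, had 63.3, 50.3 and 50.7 CPM in the controls and 39.1, 47.4 and 44.9 CPM with RAC3. Control 1 was the highest and RAC3 sample 1 the lowest, and the groups did not overlap. FOXA3 fell by 0.32 on the log2 scale (standard error 0.087, 95% interval -0.50 to -0.14, edgeR adjusted p = 0.00932). Its call rested on those samples, since it was -0.21 without control 1 (edgeR adjusted p = 0.0567) and -0.24 without RAC3 sample 1 (edgeR adjusted p = 0.0685), and it was lost with the GC trend removed (-0.15, edgeR adjusted p = 0.147).

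FOXA1 (ENSG00000129514, chromosome 14 from 37589984 to 37596059, minus strand) was nearly level, at 49.9, 49.5 and 45.9 CPM in the controls and 48.1, 48.0 and 48.3 CPM with RAC3. Its log2 fold change of -0.0073 (standard error 0.063, 95% interval -0.14 to 0.12, edgeR adjusted p = 0.945) turned to 0.049 with library size scaling, so no direction is given. In counts, the log2 ratio of FOXA1 to FOXA2 was -1.49, -1.44 and -1.57 in the controls and -1.34, -1.30 and -1.37 with RAC3, a difference of 0.17 without overlap (exact two-sided permutation p = 0.10, the smallest possible). The FOXA3 to FOXA2 ratio overlapped between groups, with a difference of -0.14 (exact two-sided permutation p = 0.4). FOXA1 has 51.3% GC and FOXA2 58.2%, and the ratio of FOXA1 to FOXA2 was not run with the GC trend removed. In that setting FOXA1 was at 0.028 and FOXA2 at -0.039, so the difference of 0.17 holds for counts without that removal.

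HNF4A, the nuclear receptor at the centre of the network, had no call. Its gene (ENSG00000101076, chromosome 20 from 44355700 to 44434596, plus strand) spans both promoter starts, and its longest transcript has 10 exons. The controls had 227.3, 196.5 and 205.6 CPM and the RAC3 samples 219.9, 205.6 and 214.9 CPM, so that the groups overlapped. The log2 fold change was 0.026 (standard error 0.052, edgeR adjusted p = 0.752), with a 95% interval from -0.083 to 0.13. With 2952 to 3909 counts per sample, counting error was at most 1.84% of a value, below the spread between controls of 7.56% (coefficient of variation).

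PROX1 (ENSG00000117707, chromosome 1 from 213983181 to 214041502, plus strand) had 184.5, 176.5 and 182.7 CPM in the controls and 201.2, 189.0 and 197.1 CPM with RAC3. Although the groups did not overlap, the log2 fold change of 0.11 (standard error 0.045) missed the threshold (edgeR adjusted p = 0.072). It passed with library size scaling (0.17, edgeR adjusted p = 0.0085) and was -0.017 with the GC trend removed (edgeR adjusted p = 0.807), so no direction is given.

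GC content of the transcripts moved with the comparison across all genes, and the factors span its range. The median log2 fold change of all genes was 0.16 for 1967 genes of at most 40% GC, -0.049 for 1927 genes between 50% and 55%, and -0.23 for 528 genes above 65%. PROX1 has 40.7% GC, FOXA1 51.3%, HNF4A 52.8%, FOXA2 58.2% and FOXA3 60.8%, whereas CEBPA has 65.9%, CEBPB 66.2% and CEBPD 70.0%. Among the 528 genes above 65%, 4 had a larger log2 fold change than CEBPD and 61 a larger one than CEBPB, and 95 had a smaller one than CEBPA. FOXA2 was close to the median of its GC class, -0.12 for 1986 genes, and PROX1 to that of its own, 0.11 for 2795 genes.

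With each library's GC trend removed, CEBPD was 0.98 (edgeR adjusted p = 8.57e-12) and CEBPA was -0.26 (edgeR adjusted p = 7.13e-05), both still called. CEBPB then passed the test at 0.28 (edgeR adjusted p = 0.00325), and FOXA2, FOXA3 and PROX1 had no call. Thus 3 of 8 members were called, 2 higher and 1 lower, where 20.7% of 12863 genes were called. HNF4A at 0.084 (edgeR adjusted p = 0.225) and FOXA1 at 0.028 (edgeR adjusted p = 0.782) had no call in either fit.

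**Figure D3:**
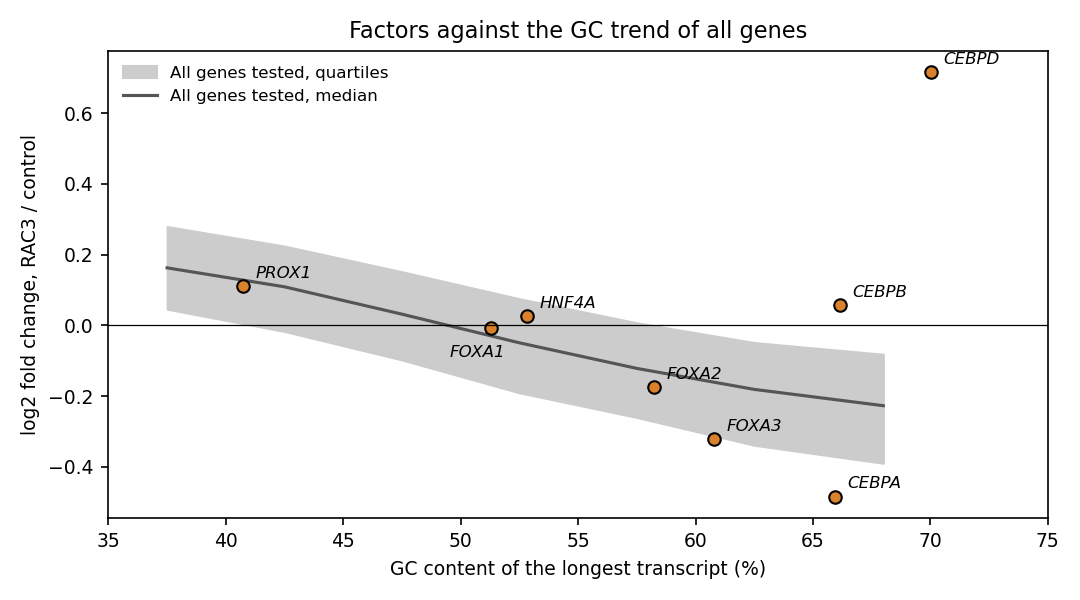
log2 fold change with RAC3 against the GC content of the longest transcript in percent, with the median (line) and quartiles (band) of all genes tested in 7 GC classes and the 8 factors as points. The line falls from 0.16 to -0.23, FOXA2 and PROX1 lie near it, CEBPD and CEBPB lie above the band and CEBPA lies below it.

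**Figure D4:**
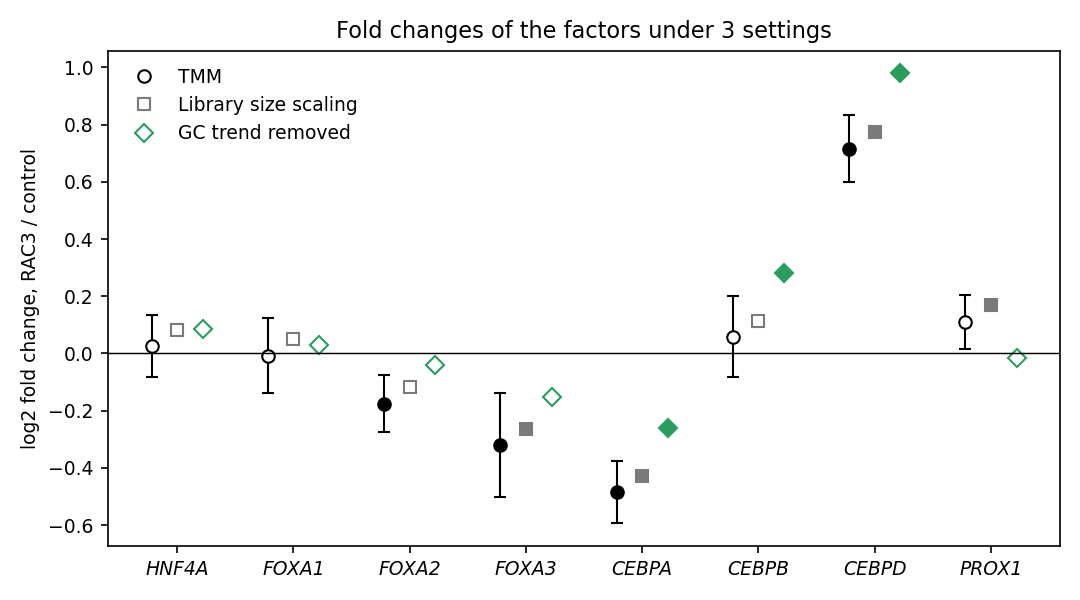
log2 fold change of the 8 factors with TMM scaling (circles, with 95% intervals), library size scaling (squares) and each library's GC trend removed (diamonds), filled at an adjusted p below 0.05. CEBPA is filled below 0 and CEBPD above 0 in all 3 settings, FOXA2 is filled with TMM scaling and open in the other settings, and CEBPB is filled at 0.28 with the GC trend removed.

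Levels of different genes were compared per length, as the authors' FPKM (fragments scaled to transcript length and sequencing depth). In the controls CEBPA was highest, at 126.3 ± 8.97 FPKM (SD, n = 3), and CEBPD followed at 69.5 ± 3.77. FOXA2 at 55.4 ± 0.853 and HNF4A at 53.1 ± 2.66 overlapped, below them came FOXA3 at 27.9 ± 3.55, PROX1 at 23.6 ± 0.707 and CEBPB at 20.3 ± 0.301, and FOXA1 was lowest at 14.0 ± 0.584. With RAC3 CEBPD led at 118.7 ± 5.67 FPKM and CEBPA followed at 93.9 ± 3.92. HNF4A at 54.9 ± 1.43 and FOXA2 at 51.1 ± 1.49 came next, PROX1 at 27.5 ± 0.934 stood above FOXA3 at 23.5 ± 1.72 and CEBPB at 22.04 ± 0.99, which overlapped, and FOXA1 at 14.4 ± 0.422 was again lowest.

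That order depended on the lengths used, at its head on the length given to CEBPD. The counts and FPKM imply 1.25 kb for CEBPD, where the longest GENCODE 29 transcript has 2.18 kb, against 2.60 kb and 2.63 kb for CEBPA. Per kilobase of the GENCODE lengths, a comparison added after the data were seen, CEBPD had 40.7 and 66.9 CPM per kilobase in controls and RAC3 samples and CEBPA had 127.3 and 91.0, so that CEBPA stayed above. CEBPD then lay below FOXA2 in the controls, where FOXA2 had 56.6 CPM per kilobase, and HNF4A lay below FOXA2 with RAC3, at 33.1 against 50.1. The difference in the CEBPD to CEBPA ratio between groups does not depend on length. The FPKM of the 3 C/EBP genes summed to 216.0 ± 12.6 in the controls and 234.6 ± 9.50 with RAC3, which overlapped (exact two-sided permutation p = 0.2), and those of the 3 FOXA genes to 97.3 ± 4.80 and 88.9 ± 1.78, which did not (exact two-sided permutation p = 0.10). Per kilobase of the GENCODE lengths the C/EBP sum turned to a lower mean with RAC3, from 187.5 ± 12.4 to 178.2 ± 7.81 CPM per kilobase (exact two-sided permutation p = 0.5), so no direction is given, and the FOXA sum went from 101.0 ± 5.24 to 88.9 ± 2.18 (exact two-sided permutation p = 0.10).

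CEBPD was the member past a fold of 1.5, and the genes with the most similar profile to it were sought over the 6 samples. Among 12835 genes averaging 10 counts or more, ODR4 (root mean square difference 0.063 in log2 CPM), EREG (0.070), an epidermal growth factor receptor ligand, and OSMR (0.073), the oncostatin M receptor, came closest. Their log2 fold changes were 0.69, 0.80 and 0.64. With 3 samples per group, this likeness mostly reflects a similar difference between the groups.

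Around the factors, 88 genes of 8 lists were tested, of which 24 rose and 20 fell, beside 28.5% of all genes tested (13.3% higher and 15.3% lower) and 40.8% of those averaging 500 or more counts. The lists differ in their levels and were chosen with earlier results known, so nothing is read from that share. Among 21 tested genes for other liver-enriched factors 5 rose, 7 fell and 9 had no call, with a median log2 fold change of -0.13. CREB3L3, a liver bZIP factor of lipid metabolism, rose from 36.0 to 49.4 CPM (0.46, edgeR adjusted p = 8.36e-05), and the paralog HNF4G (0.37) and the GATA factor GATA6 (0.18) also rose. RXRA, the retinoid X receptor that pairs with many nuclear receptors, fell from 93.7 to 71.1 CPM (-0.40, edgeR adjusted p = 1.25e-04), as did TBX3 (-0.29) and HHEX (-0.22), a homeobox factor of the liver bud. With the GC trend removed, HNF4G was 0.18 (edgeR adjusted p = 0.242) and the others of these 6 were still called. The count of 5 higher became 1 without control 1, 3 without control 2 or control 3, and 2 without RAC3 sample 1 or RAC3 sample 3, and the count of 7 lower became 4 without control 1 or RAC3 sample 1.

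The list of C/EBP relatives and bZIP partners was mixed, and CEBPZ is a relative in it by name only. Of 10 tested C/EBP relatives and partners, 3 rose, 2 fell and 5 had no call, with a median of -0.06. CEBPZ (0.38, edgeR adjusted p = 7.00e-04), ATF3 (0.40, edgeR adjusted p = 0.00105), a stress-induced factor, and HLF (0.47, edgeR adjusted p = 0.022) rose, and the HLF call was lost with the GC trend removed (0.38, edgeR adjusted p = 0.0671). DBP, a clock-controlled PAR bZIP factor of liver, fell from 10.6 to 5.84 CPM (-0.86, edgeR adjusted p = 5.70e-04), and NFIL3 fell by 0.22 on the log2 scale (edgeR adjusted p = 0.0481). NFIL3 was not called with library size scaling (-0.16, edgeR adjusted p = 0.13), and 1 gene was called lower there, with DESeq2, with limma-voom and with the length trend removed. CEBPG, chosen for mention after its values were seen because it lies next to CEBPA on chromosome 19, was at -0.048 (edgeR adjusted p = 0.575), and CEBPE, chosen in the same way, was at 0 counts in all 6 samples, which allows up to 3 counts in each. The 2 lower calls became 1 without control 1, control 2, RAC3 sample 1, RAC3 sample 2 or RAC3 sample 3.

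Proteins that act on C/EBP proteins moved in both directions at the RNA level. The pseudokinase TRIB1 brings CEBPA to the ubiquitin ligase COP1, and GSK3B phosphorylates C/EBP proteins. Of 8 tested genes 3 rose, 2 fell and 3 had no call. GSK3B (0.32, edgeR adjusted p = 2.98e-04), TRIB1 (0.26, edgeR adjusted p = 0.020) and COP1 (0.25, edgeR adjusted p = 0.0472) rose, whereas TRIB3, a stress-induced pseudokinase, fell from 260.8 to 190.5 CPM (-0.45, edgeR adjusted p = 1.44e-05) and EIF4EBP1, which restrains cap-dependent translation, fell from 178.8 to 126.5 CPM (-0.50, edgeR adjusted p = 1.20e-06). COP1 was not called with the GC trend removed (0.24, edgeR adjusted p = 0.0528), and 2 genes were called higher with DESeq2, with limma-voom, with every gene that had a count and with the replicate block. Without control 2, control 3 or RAC3 sample 3, 1 gene was called higher.

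Of 18 tested genes of the cytokine route that is known to induce CEBPB and CEBPD 6 rose, 0 fell and 12 had no call, with a median of 0.11. Beside them, 13.3% of all genes tested were higher, and the medians of all genes were 0.16 at up to 40% GC and 0.11 between 40% and 45%. At an unadjusted p below 0.05 edgeR had 1 lower, and limma-voom called 1 lower and DESeq2 0. LIFR (0.45, edgeR adjusted p = 7.43e-06), OSMR (0.64, edgeR adjusted p = 2.30e-05) and IL6ST (0.36, edgeR adjusted p = 9.15e-05) rose, which encode the receptor chains for leukemia inhibitory factor and oncostatin M and their shared partner gp130. LIFR went from 80.0 to 109.2 CPM, IL6ST from 81.5 to 104.3 CPM and OSMR from 22.3 to 34.6 CPM. JAK2, STAT3 and IL1RAP completed the 6, and the ligands IL6, IL1B and OSM were below the filter, all 6 chosen for mention after their values were seen. The ligand LIF, chosen in the same way, was tested at 1.21 and 1.03 CPM and had no call (-0.23, edgeR adjusted p = 0.69). All 3 receptor chains were still called with the GC trend removed, at 0.26, 0.58 and 0.17, as were JAK2 (0.65) and STAT3 (0.22), whereas IL1RAP was not (0.089, edgeR adjusted p = 0.211). With library size scaling 9 were called higher. Without RAC3 sample 2, 1 gene was called lower.

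Genes known as targets of these factors were called in both directions. Of 13 tested HNF4A targets 3 rose, 7 fell and 3 had no call, with a median of -0.26, while HNF4A itself had no call. MTTP (0.26, edgeR adjusted p = 2.47e-04) and APOB (0.20, edgeR adjusted p = 0.00162), which build lipoproteins, and FABP1 (0.73, edgeR adjusted p = 0.00671) rose. TF, encoding transferrin, fell from 1173 to 794.8 CPM (-0.56, edgeR adjusted p = 1.20e-08), and APOA2 (-0.58, edgeR adjusted p = 1.18e-06) and the clotting factor gene F7 (-0.55, edgeR adjusted p = 9.95e-05) fell too. Of 8 tested FOXA targets, AFP rose (0.16, edgeR adjusted p = 0.00885), TTR fell (-0.26, edgeR adjusted p = 7.62e-04) and 6 had no call. The AFP call was lost with the GC trend removed (0.0048) and without control 2, and the FOXA targets lower became 2 with the GC trend removed, where ALB was added, 3 without control 1 and 2 without RAC3 sample 1.

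Of 10 metabolic targets of C/EBP proteins 7 were tested, and edgeR called 0 higher and 0 lower, with a median of -0.48 and 1 lower at an unadjusted p below 0.05, while DESeq2 and limma-voom also called 0. Of the 7, 5 had mean levels under 3 CPM in both groups, whereas ALB, encoding serum albumin, had 2366 and 2228 CPM and PPARG, a nuclear receptor named after its values were seen, had 41.4 and 43.2 CPM. With the GC trend removed, alone or with the replicate block, 1 gene was called lower, which was ALB (-0.21, edgeR adjusted p = 6.83e-05 without the block). Without control 1, 2 genes were called lower, and without RAC3 sample 1, 1 gene was.

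Of 11 tested acute phase genes, a class that CEBPB and CEBPD are known to serve, 3 rose, 3 fell and 5 had no call, with a median of -0.15. The fibrinogen chains rose, FGB from 486.3 to 599.8 CPM (0.30, edgeR adjusted p = 2.62e-05), FGA from 730.5 to 846.8 CPM (0.21, edgeR adjusted p = 3.89e-04) and FGG from 245.9 to 289.4 CPM (0.23, edgeR adjusted p = 0.00113). The orosomucoid genes ORM1 (-0.40, edgeR adjusted p = 9.64e-06) and ORM2 (-0.36, edgeR adjusted p = 7.80e-04), near-identical copies whose reads may be shared, and C3 (-0.14, edgeR adjusted p = 0.0187) fell. C3 was at -0.032 with the GC trend removed (edgeR adjusted p = 0.607), and the other 5 were still called. CRP, SAA1, SAA2, HP and LBP, classical acute phase genes named after their values were seen, were below the filter.

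**Figure D5:**
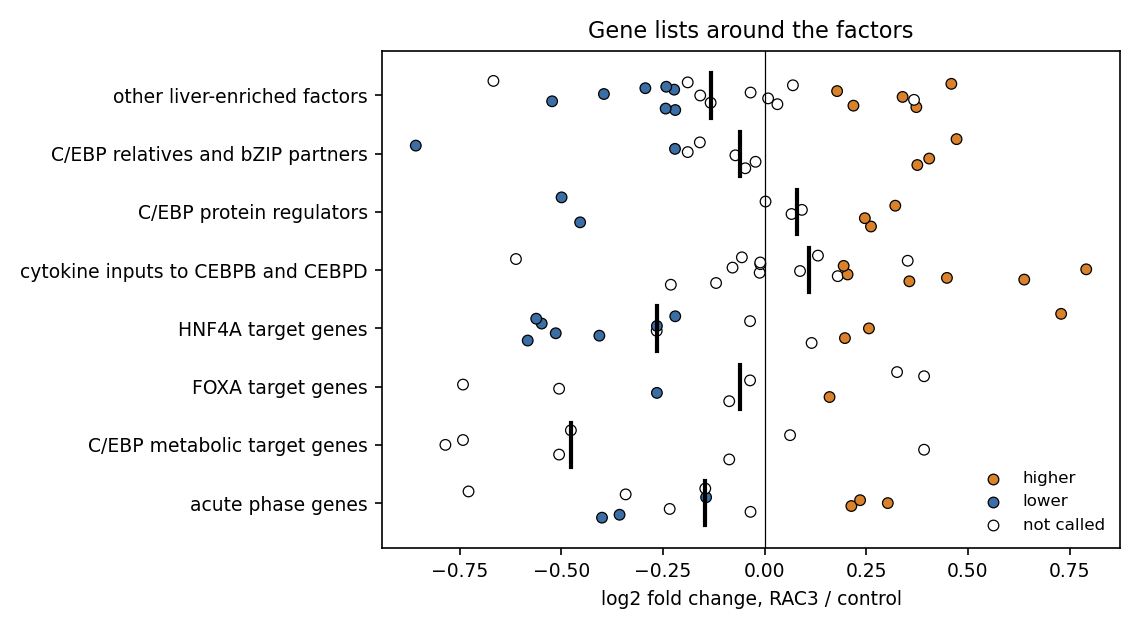
log2 fold change with RAC3 of the tested genes in 8 lists around the factors, 1 point per gene, filled orange for higher, blue for lower and white for no call, with a vertical bar at each list's median. The medians lie between -0.48 for C/EBP metabolic targets and 0.11 for the cytokine inputs, and calls in both directions are seen in 6 of the 8 lists.

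Several members share their place with another annotated gene. HNF4A overlaps HNF4A-AS1, PROX1 overlaps PROX1-AS1, CEBPB overlaps CEBPB-AS1 by 765 bases, CEBPA overlaps the antisense genes AC008738.3 by 1235 bases and AC008738.5 by 662 bases, FOXA1 overlaps TTC6 by 213 bases, and FOXA2 shares 3257 bases with AL121722.1 on its own strand. The sources used here do not say whether counting used strand, so reads of a member and of an antisense partner cannot be told apart. Of 6 noncoding neighbours listed for these loci, 0 are in the count table analysed here.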

How the data were processed

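Poly(A) RNA of 3 negative control and 3 RAC3 samples of Huh-7 cells was sequenced on an Illumina instrument. The deposited table holds counts per gene and sample, not normalized, and FPKM per sample with the mean FPKM of each group, both made by the authors. Their processing notes name Bowtie2 2.2.8, HISAT2, StringTie 1.3.1 and DESeq2; the genome build, the annotation and the use of strand are not given in the sources used here. Samples were grouped by title.

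Counts were analysed with edgeR 4.0.16 in R 4.3.3: filterByExpr left 12941 of 20332 genes, libraries were scaled by TMM, and RAC3 was compared with control by the two-sided quasi-likelihood F test (Benjamini-Hochberg over all genes tested). Standard errors were derived from the F statistic. Family ratios were compared by exact permutation tests over samples. Alternatives were DESeq2 1.42.0 and its size factors, limma-voom (limma 3.58.1), library size scaling, every gene with a count, a replicate term, subtraction of a per-library GC or length trend (lowess, span 0.3, GENCODE 29, which held 20113 of the identifiers), and leaving out each sample. On simulated data for this comparison (12850 genes), 187 of 199 changed genes were recovered and 4 others called. The planted changes were at least 1.5-fold up or down, with a common dispersion and no GC trend. The simulation therefore does not cover smaller changes, such as those of CEBPA, FOXA2 and FOXA3, or the GC trend of these data.

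The 8 members and the 11 lists, written from general knowledge, were chosen with earlier results of these data known. Named genes are the members, RAC3, up to 3 genes higher and 3 lower with the smallest p among the called genes of each list, the marker genes, and for a called member past a fold of 1.5 the 3 genes closest in root mean square difference. Genes that overlap a member were named from the annotation, and any other gene is marked in the text as chosen after its values were seen. The lists hold other liver-enriched factors, C/EBP relatives, C/EBP regulators, cytokine inputs, HNF4A, FOXA and C/EBP metabolic targets, acute phase genes, noncoding neighbours, line markers and markers of other cell types.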

Additional observations from a re-analysis of the deposited data

How the results depend on the processing

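The CEBPA and CEBPD calls held their direction and side of the threshold under every alternative run. The ratios of CEBPD to CEBPA, CEBPB to CEBPA and FOXA1 to FOXA2 moved by less than 1 SD under fewer alternatives. Those were the authors' FPKM, the replicate block and leaving out each sample. The block could not move a ratio in this balanced design, nor could FPKM move the C/EBP ratios, whose implied lengths were constant. Library size scaling could not move a ratio within a sample. The ratios were not run with the GC trend removed, so their steadiness does not cover that setting. There CEBPD at 0.98 and CEBPB at 0.28 stayed above CEBPA at -0.26. FOXA1 at 0.028 and FOXA2 at -0.039 lay nearer each other than with TMM scaling (-0.0073 and -0.18). FOXA2 lost its call with library size scaling (-0.12), after removal of the GC trend (-0.039) and after its removal together with the replicate block (-0.039). FOXA3 lost its call with the GC trend removed (-0.15), alone or with the replicate block (-0.15), and without control 1 or RAC3 sample 1, with leave-one-out values from -0.38 to -0.21. CEBPB gained a call with the GC trend removed (0.28), alone or with the block (0.28). PROX1 gained one with library size scaling (0.17) and turned to -0.017 with the GC trend removed, alone or with the block. FOXA1 turned to 0.049 with library size scaling, 0.028 and 0.027 with the GC trend removed without and with the block, 0.020 with the length trend removed, and ranged from -0.051 to 0.011 with a sample left out. HNF4A turned to -0.018 with the length trend removed and ranged from -0.025 to 0.082 with a sample left out. Members called higher were 2 and members called lower 1 with the GC trend removed, with or without the block, and members called higher were 2 with library size scaling. Library size scaling moved the median of all genes from 0.00 to 0.06 and the share of higher calls from 46.5% to 65.4%. The cause of these changes was not tested.

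Samples with the same replicate number did not deviate together (correlations -0.189, -0.106 and -0.0271 over 8730 genes), so the numbers were not taken as pairs. The replicate block alone changed no member's call, with 3261 genes called in place of 3691. With 3 samples a group the exact tests of the ratios cannot go below 0.10, so their p says nothing about stability.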
